A study of Mus musculus with 16 samples.

Results

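The genes described here encode the 3 large enzyme families of phase II conjugation, namely glutathione S-transferases (GST), UDP-glucuronosyltransferases (UGT) and sulfotransferases (SULT). Members were chosen by gene symbol alone (the cytosolic and kappa GST classes with a letter and a number, UGT families 1 to 3, and every numbered SULT), which gave 64 of the 55450 genes in the count table, with 22 GST, 21 UGT and 21 SULT genes. RNA was measured by bulk mRNA sequencing in primary hepatocytes of wild-type mice, which the study's methods describe as young adult male C57BL/6J animals. The cells were left untreated or were exposed overnight to 10 mM sodium itaconate, to a chemically defined lipid mixture (fatty acids and cholesterol) diluted 10-fold, or to lipid + itaconate. Each treatment had 4 libraries, lettered A to D, and no group carried a genetic change. The labels do not say whether the letters are separate animals or cultures. The p-values measure the spread left between these libraries after treatment and letter are accounted for, and that spread may be technical.

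Conjugation makes reactive or fat-soluble compounds easier to excrete. GST enzymes join glutathione to electrophiles, UGT enzymes transfer glucuronic acid from UDP-glucuronic acid to bilirubin, steroids, bile acids and drugs, and SULT enzymes transfer sulfate from the donor PAPS to hormones, phenols and bile acids. Hepatocytes are the main site of all 3 reactions in the body, and many of the genes are controlled by the receptors that sense foreign compounds.

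Several of these genes are near copies of each other, and RSEM, which made the counts, splits a read that could come from any of them into fractions. Of the values of members above 0, 46.09% were not whole, against 16.48% of all values above 0 in the table. The RefSeq and GENCODE sequences show where reads cannot be separated. *Ugt2b5*, *Ugt2b37* and *Ugt2b38*, steroid-conjugating genes of the Ugt2b cluster on chromosome 5, have coding sequences of 1593 bases that differ among the 3 genes at 112 positions. The 60 coding bases with the most differences (positions 480 to 539, counted from the A of the start codon, GENCODE M21) are shown with the 12 differing bases in capitals.
Ugt2b5: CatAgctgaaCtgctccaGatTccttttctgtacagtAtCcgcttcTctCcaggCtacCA
Ugt2b37: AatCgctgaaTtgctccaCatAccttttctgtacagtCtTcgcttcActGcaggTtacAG
Ugt2b38: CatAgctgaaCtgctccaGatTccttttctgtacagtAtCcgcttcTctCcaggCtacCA
Over this window *Ugt2b5* and *Ugt2b38* read alike and *Ugt2b37* stands apart. Over the whole coding sequence *Ugt2b37* and *Ugt2b38* were 94.1% identical, and *Ugt2b37* and *Ugt2b5* 94.7%.

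*Gstp1* and *Gstp2*, the pi class GST genes on chromosome 19, differ at 12 of 633 coding positions. Of these, 6 fall in the first 60 coding bases, where they are in capitals.
Gstp1: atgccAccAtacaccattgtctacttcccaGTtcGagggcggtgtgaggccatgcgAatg
Gstp2: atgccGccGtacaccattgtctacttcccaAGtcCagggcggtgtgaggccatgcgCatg
The 9 Ugt1a genes on chromosome 1 join their own first exon to common later exons, and their last 740 coding bases are the same. No read within them can be assigned to 1 gene. For each gene, the stretches of 50 bases in its GENCODE transcripts that occur in no other gene were counted. They made up 9.5% of the stretches of *Gsta1*, 45.7% of *Gstp2*, 50.2% of *Gsta2*, 58.3% of *Ugt2b5*, 62.6% of *Ugt2b38*, 66.3% of *Gstp1* and 81.7% of *Ugt2b37*, and between 20.2% (*Ugt1a6b*) and 47.9% (*Ugt1a6a*) for the Ugt1a genes tested. *Gsta1* shared 75.7% of its stretches with the gene model *Gm3776*. In contrast, *Sult1e1*, *Sult1d1*, *Gsta4*, *Gstm4* and *Gstm5* were at 100%, *Ugt2b36* and *Gsta3* at 99.7%, and *Ugt2b34* at 98.6%. Levels and changes of the genes with few stretches of their own are uncertain to the extent that their reads were divided.

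**Figure D1:**
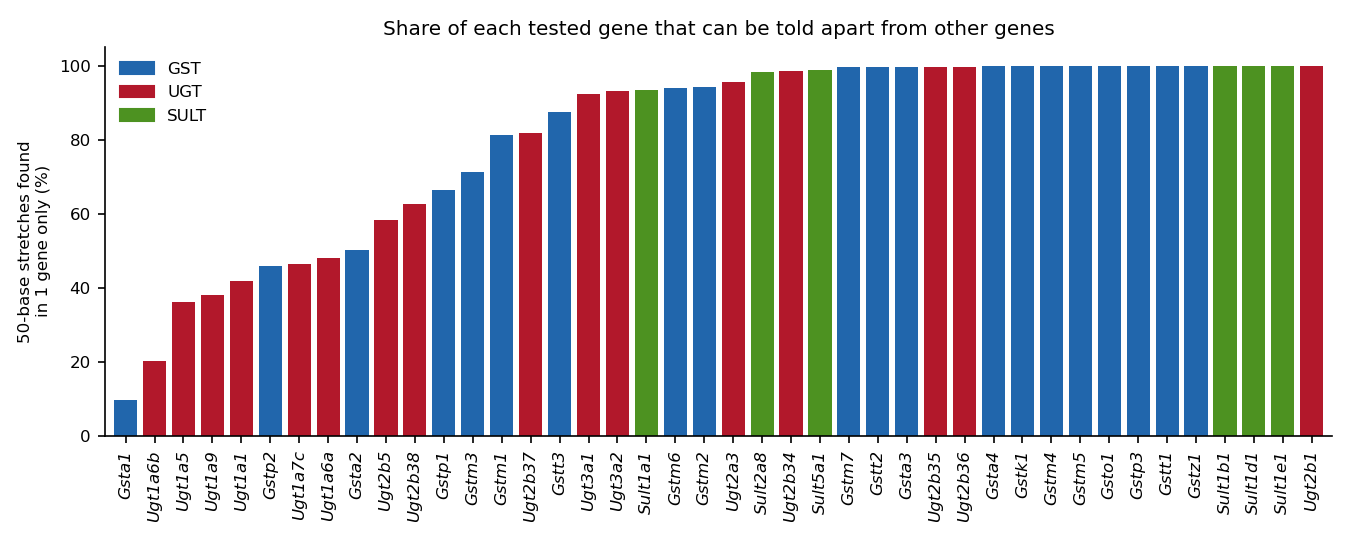
Share of the 50-base stretches of each of the 42 tested genes that occurs in no other GENCODE M21 gene (y axis, percent), with genes in order of that share and bars coloured by family. *Gsta1* (9.5%) and *Ugt1a6b* (20.2%) stand lowest, *Gstp2* (45.7%) lies among the other Ugt1a genes, and *Sult1e1*, *Sult1d1* and *Gsta4* reach 100%.

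The 16 libraries held 22346049 to 35512004 expected counts, and the members made up 0.690 ± 0.0101% of them in untreated cells (SD, n = 4). The share was 0.699 ± 0.018% after itaconate, 0.702 ± 0.0349% after lipid and 0.712 ± 0.0286% after lipid + itaconate. One library stood apart from its group across all genes. The counts of lipid + itaconate B differed from those of A, C and D by 113, 131 and 94.9 times counting noise (chi-square per gene), while the other 21 pairs of libraries of a group lay between 9.14 and 57. For members and pathway genes, the counts of calls and the larger changes of members that rest on this library are therefore also given without it. For cell type markers they are not. The share of mitochondrial counts was highest in lipid + itaconate C, at 6.006% against 3.271 to 4.975% in the other libraries. Of the hepatocyte markers, *Alb*, the gene of albumin, was at a mean level of 33500 CPM (the count relative to a library size scaled by edgeR's TMM factor). Of the lists for other liver cells, the Kupffer cell gene *Clec4f* had a mean of 2.19 CPM, the stellate cell gene *Lrat* 0.0444 CPM, the endothelial gene *Stab2* 2.35 CPM and the bile duct gene *Krt19* 0.225 CPM. Other genes of 3 of these lists were much higher, with 218 CPM for *Cd68* of the macrophage list and 530 CPM for *Spp1* and 112 CPM for *Sox9* of the bile duct list. *Reln* of the stellate list lay between 15.4 and 24.3 CPM in the 16 libraries. In bulk RNA, fewer cells of a type and less RNA per cell cannot be told apart.

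Of the 64 members, 42 averaged 1 CPM or more across the 16 libraries and were tested, comprising 20 GST, 16 UGT and 6 SULT genes. A further 13 had counts but lay under this filter, and 9 (2 UGT and 7 SULT genes) were listed at 0 in every library. The genes at 0 included *Sult2a1*, *Sult2a3*, *Sult2a4*, *Sult2a5* and *Sult2a6* of the hydroxysteroid sulfotransferases, while *Sult2a8*, a bile acid sulfotransferase of the same subfamily, was the most abundant SULT gene at 107 CPM. GST genes made up 70.8% of the summed level of the members, UGT genes 26.6% and SULT genes 2.63%.

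Levels of different genes were set side by side per kilobase of exon, with the exons of all annotated transcripts of a gene merged. The order depends on this length, since a gene with long alternative exons ranks lower than by CPM. *Gsta3* had 246 CPM over 4344 bases of exon and *Gsta4* 235 CPM over 1266 bases. Likewise *Ugt2b34* had 552 CPM over 4312 bases and *Ugt2b5* 306 CPM over 1858 bases. On this scale *Gstp1* was highest with a mean of 1400 CPM per kilobase over the 16 libraries. It was followed by *Gstm1* of the mu class (841), *Gsta1* of the alpha class (429), *Gsta4*, whose enzyme acts on the lipid peroxidation product 4-hydroxynonenal (185), *Gsta2* (86.7) and *Gstp2* (73.2). Among UGT genes the order was *Ugt2b5* (165 CPM per kilobase), *Ugt2b34* (128), *Ugt2b36* (90.9), *Ugt1a1*, which encodes the bilirubin-conjugating enzyme (77.7), *Ugt2b1* (49.7) and *Ugt2b35* (42.6). The 6 SULT genes ran from *Sult2a8* (32.6) through *Sult1a1*, a phenol sulfotransferase (21.1), *Sult1d1*, which sulfates catecholamines among other compounds (14.6), *Sult1e1*, the estrogen sulfotransferase (2.01) and *Sult1b1*, which sulfates thyroid hormones (1.49), to *Sult5a1* (0.71). These levels thus spanned more than 3 orders of magnitude between *Gstp1* and *Sult5a1*, while most genes moved little between treatments. The range of the 4 treatment means was 0.34 on the log2 scale in the median member, and the range of the 4 replicate letter means was 0.33. In 22 of the 42 members the letters differed more than the treatments.

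**Figure D2:**
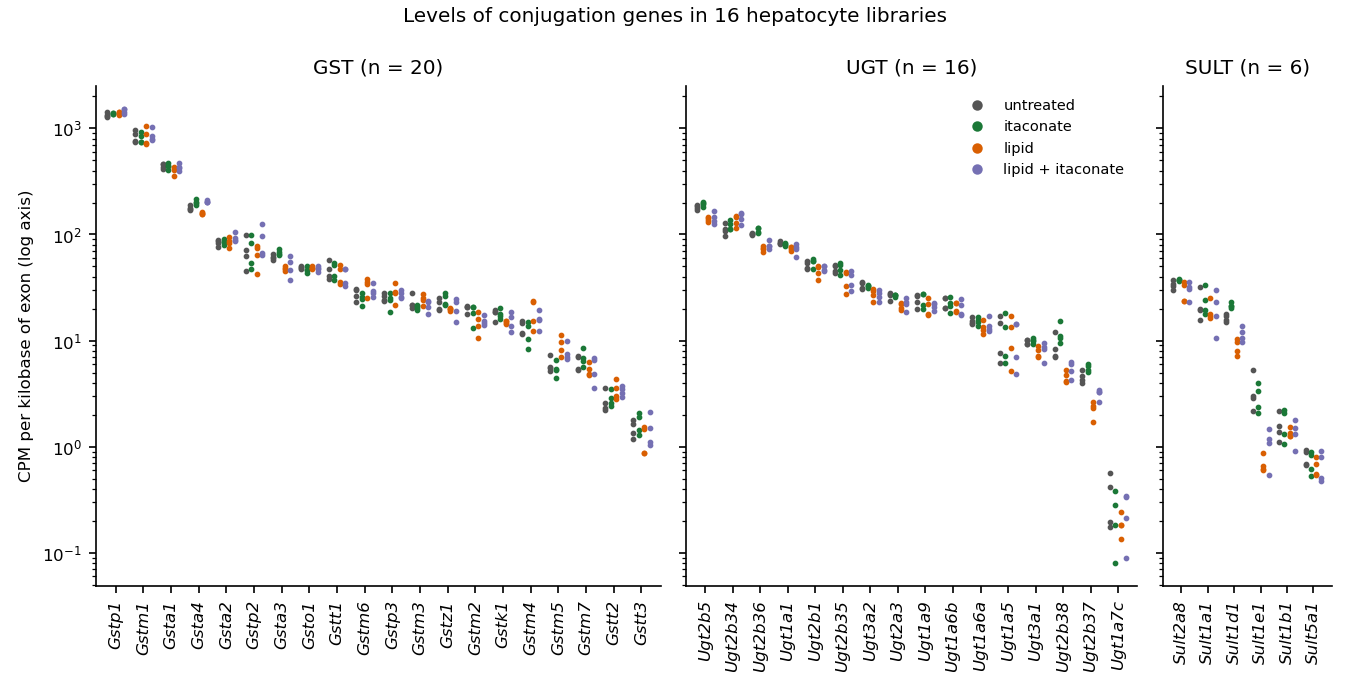
Level of each of the 42 tested genes (y axis, CPM per kilobase of exon, log axis) in the 16 libraries, with 1 point per library coloured by treatment and genes in order of mean level within each family. *Gstp1* and *Gstm1* are highest among GST genes, the UGT genes lead with *Ugt2b5* and *Ugt2b34*, and *Sult1e1* shows the widest gap between libraries with and without lipid.

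The letters mattered most for *Ugt1a5*, whose means over a letter covered a 3.02-fold range. Its untreated libraries A to D held 37.9, 32.5, 13.5 and 16.9 CPM, and its lipid-treated libraries 37.8, 29.6, 11.4 and 18.9 CPM. Libraries A and B were thus high and C and D low in both groups, and the groups overlapped. *Ugt1a7c* (2.38-fold), *Sult1e1* (2.07-fold), *Sult1a1* (2.01-fold), *Gstp2* (1.9-fold) and *Sult1b1* (1.75-fold) also differed by letter, and *Gstp2* was highest in C and lowest in A. The replicate letter was a term in the model for all tests.

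The lipid mixture changed more of these genes than itaconate did in number of calls, and the predominant direction was downward. Of the 42 members tested, 20 fell and 5 rose against untreated hepatocytes (edgeR quasi-likelihood test, adjusted p under 0.05 over all 11675 genes). Among all genes tested 23.7% fell and 23.8% rose. The share of members called was 59.5%, compared to 47.5% of all genes, and their median log2 fold change was -0.18 against 0.00 for all genes. UGT genes accounted for most of the decreases, with 12 lower, 1 higher and 3 not called. Of the GST genes 6 were lower and 4 higher, and of the SULT genes 2 were lower. In 12 members the lipid-treated and untreated libraries did not overlap, as in 32.5% of all genes. Without the replicate letter in the model 13 members and 35.5% of all genes were called. Among the calls of the full model, 5 members (*Sult1e1*, *Ugt2b37*, *Sult1d1*, *Ugt2b38* and *Gstm5*) and 9.78% of all genes changed by at least 1.5-fold.

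*Sult1e1* (chr5:87575969-87591594, GRCm38), which inactivates estrogens by sulfation, changed most. Its untreated libraries A to D held 3.56, 6.63, 3.73 and 2.68 CPM and its lipid-treated libraries 0.772, 1.09, 0.811 and 0.743 CPM. Every lipid-treated library was below every untreated library. The level fell 4.71-fold (log2 fold change -2.23 ± 0.188 SE, edgeR adjusted p = 2.46e-07), from 4.15 ± 1.72 to 0.854 ± 0.16 CPM (SD, n = 4). *Sult1e1* is a low-abundance gene with 18 to 189 counts per library. *Sult1d1* (chr5:87554645-87569027) lies beside it and was the second SULT gene called. *Sult1d1* was at 38.8, 42.1, 37.1 and 43.5 CPM in untreated and 17.7, 19.5, 24.1 and 25.5 CPM in lipid-treated libraries A to D. The groups did not overlap, and all 4 letters moved downward, by a log2 fold change of -0.90 ± 0.106 (edgeR adjusted p = 7.45e-06). The other SULT genes were not called, with log2 fold changes of -0.16 for *Sult1a1*, -0.17 for *Sult1b1*, -0.21 for *Sult2a8* and -0.29 for *Sult5a1* (edgeR adjusted p = 0.274, 0.391, 0.204 and 0.13).

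The Ugt2b genes encode the steroid, bile acid and drug conjugating UGT enzymes, and all 7 were called, with 6 lower and 1 higher. *Ugt2b37* (chr5:87240493-87254804) was at 8.76, 7.58, 8.07 and 9.95 CPM in untreated and 3.25, 4.36, 4.95 and 4.56 CPM in lipid-treated libraries A to D, a 2.00-fold decrease (SE 0.122 on the log2 scale, edgeR adjusted p = 9.62e-06). *Ugt2b38* (chr5:87409942-87424203) was at 13.4, 13.1, 22.8 and 15.6 CPM in untreated and 7.64, 10.0, 9.04 and 7.93 CPM in lipid-treated libraries, a log2 fold change of -0.89 ± 0.152 (edgeR adjusted p = 0.00021). For both genes the lowest untreated library lay above the highest lipid-treated library. *Ugt2b5* (chr5:87124960-87140318), the abundant gene among these near copies, was at 333, 314, 355 and 347 CPM in untreated and 246, 273, 263 and 257 CPM in lipid-treated libraries (log2 fold change -0.38 ± 0.0677, edgeR adjusted p = 0.000314), again without overlap. Summed over the 3 genes, which does not depend on how reads were divided among them, the level went from 362 ± 21.9 to 273 ± 12.8 CPM and was lower in all 4 letters.

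*Ugt2b36* (chr5:87065927-87092555), with nearly all of its sequence its own, was at 202, 209, 214 and 209 CPM in untreated and 140, 162, 149 and 155 CPM in lipid-treated libraries A to D. No libraries overlapped, and the log2 fold change was -0.46 ± 0.0458 (edgeR adjusted p = 1.31e-06). *Ugt2b35* (-0.40) and *Ugt2b1* (-0.19) were also lower, but not called without the replicate letter (edgeR adjusted p = 0.0603 and 0.115), and *Ugt2b1* not without lipid A (edgeR adjusted p = 0.0585). *Ugt2b34* went the other way and was the one UGT gene that rose. It lies at chr5:86889767-86906937 and was at 468, 419, 487 and 552 CPM in untreated and 495, 557, 640 and 630 CPM in lipid-treated libraries, so that the groups overlapped but each letter was higher with lipid (log2 fold change 0.27 ± 0.083, edgeR adjusted p = 0.0142). The call was lost without the replicate letter, without untreated B and without lipid C (edgeR adjusted p = 0.0557, 0.0658 and 0.0699). The coding sequence of *Ugt2b34* was 72.3% identical to that of *Ugt2b37*. In the 250 bases before the transcription start (RefSeq, GRCm38.p6), *Ugt2b37* and *Ugt2b38* were 94.9% identical and *Ugt2b5* was 88.1% and 88.3% identical to them, whereas *Ugt2b34* was 55.2% identical to *Ugt2b37*. *Ugt2b1* (58.4%) and *Ugt2b35* (63.0%), which fell, were also far from *Ugt2b37* there.

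Among the Ugt1a genes, which share their later exons, 3 of 6 tested were lower with lipid. *Ugt1a1* was at 183, 184, 182 and 193 CPM in untreated and 154, 171, 162 and 171 CPM in lipid-treated libraries A to D, without overlap (log2 fold change -0.17 ± 0.0573, edgeR adjusted p = 0.0204). This call was lost without the replicate letter and without untreated C, untreated D or lipid A (edgeR adjusted p = 0.0589, 0.076, 0.0556 and 0.0773). *Ugt1a9* (-0.22) and *Ugt1a6a* (-0.20) were called as well (edgeR adjusted p = 0.00763 and 0.0137), with overlap of the groups. The sum over all 9 Ugt1a genes went from 385 ± 11.9 to 342 ± 17.1 CPM, lower in all 4 letters. Both Ugt3a genes, whose enzymes use sugar donors other than UDP-glucuronic acid, were lower (*Ugt3a1* -0.32, *Ugt3a2* -0.29, edgeR adjusted p = 0.0145 and 0.00452), as was *Ugt2a3* (-0.33, edgeR adjusted p = 0.00127). *Ugt1a9*, *Ugt1a6a* and the Ugt3a genes are among the calls not followed gene by gene under the alternatives. Most of those calls were lost without the replicate letter.

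*Gsta3* (chr1:21240589-21265661), a major alpha class GST of mouse liver, was at 286, 269, 249 and 258 CPM in untreated and 210, 217, 196 and 207 CPM in lipid-treated libraries. It fell by 0.35 on the log2 scale (SE 0.0763, edgeR adjusted p = 0.00137) and the groups did not overlap. *Gstm2*, of the mu class, was lower by the most among GST genes (log2 fold change -0.47 ± 0.0923, edgeR adjusted p = 0.000651), with 35.1, 35.4, 30.2 and 34.5 CPM in untreated and 26.9, 31.1, 17.7 and 23.2 CPM in lipid-treated libraries. Lipid-treated B lay above untreated C, so that these groups overlapped by 1 library on each side. Other mu class genes rose. *Gstm5* (chr3:107895821-107898686) was at 9.42, 7.23, 7.08 and 6.67 CPM in untreated and 14.3, 12.5, 8.96 and 10.4 CPM in lipid-treated libraries (log2 fold change 0.60 ± 0.0936, edgeR adjusted p = 9.52e-05). *Gstm4* (chr3:108040408-108044894) was at 26.2, 24.8, 19.9 and 20.1 CPM in untreated and 39.8, 40.2, 20.8 and 26.2 CPM in lipid-treated libraries (log2 fold change 0.45 ± 0.0997, edgeR adjusted p = 0.00179). For both genes each letter was higher with lipid, by less in C than in the others, and the groups overlapped. *Gstm6* (0.27) and the theta class gene *Gstt2* (0.36) also rose. Without the replicate letter *Gstm5* alone of these 4 GST genes was still called higher (edgeR adjusted p = 0.0835 for *Gstm4*, 0.0922 for *Gstm6* and 0.0978 for *Gstt2*), and *Gstm6* also lost its call without lipid A or lipid B. In the other direction, the theta class genes *Gstt1* (-0.12) and *Gstt3* (-0.35) and the kappa class gene *Gstk1* (-0.25) fell (edgeR adjusted p = 0.0418, 0.0228 and 0.0425), with overlap of the groups. They are among the calls with lipid that were not followed gene by gene under the alternatives. Most of those calls were lost without the replicate letter.

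The most abundant GST genes showed no call, although *Gsta1* was called under 2 of 23 alternatives (lowest edgeR adjusted p = 0.0283). The log2 fold change with lipid was 0.05 for *Gstp1* (2000 to 2220 CPM in untreated, 2050 to 2220 CPM in lipid-treated libraries, edgeR adjusted p = 0.453), 0.00 for *Gstm1* (1240 ± 158 and 1250 ± 224 CPM, edgeR adjusted p = 0.979) and -0.12 for *Gsta1* (422 ± 24.3 and 388 ± 30.6 CPM, edgeR adjusted p = 0.0876). The gene model *Gm3776*, which shares most stretches of *Gsta1*, had a mean of 437 CPM and is not in the GST sum. Summed over *Gsta1*, *Gsta2*, *Gm3776* and the gene model *Gm10639*, the level went from 972 ± 42.3 to 904 ± 73.5 CPM with lipid, lower in all 4 letters. The summed level of all GST members was 4910 ± 194 CPM in untreated and 4870 ± 363 CPM in lipid-treated hepatocytes. That of the UGT genes went from 1910 ± 92.9 to 1740 ± 86.5 CPM and that of the SULT genes from 196 ± 19.5 to 154 ± 21 CPM. The UGT and SULT sums were lower in all 4 letters, the GST sum in 3.

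Lipid + itaconate against itaconate gave the same comparison in cells that received itaconate throughout, from libraries separate from those above. Of the 42 members 18 fell and 6 rose (edgeR adjusted p under 0.05), beside 23.5% of all genes lower and 23.5% higher, and the median log2 fold change was again -0.18 against 0.00 for all genes. UGT genes numbered 11 lower and 1 higher, GST genes 5 and 5, and SULT genes 2 and 0. In 11 members the groups did not overlap, as in 31.4% of all genes. Of the members called, 21 were called in both lipid comparisons, each with the same sign, and the changes of the 42 members in both comparisons had a Pearson correlation of 0.893 across genes, which are not independent replicates. *Gsta4*, *Gstk1*, *Gstt3* and *Ugt1a6a* were called only without itaconate and *Gstm7*, *Gstp2* and *Gstz1* only with it, although no member passed the test of the difference. Without the replicate letter 11 members and 34.2% of all genes were called, and with it 4 members and 8.76% of all genes were called and changed by at least 1.5-fold. Leaving out lipid + itaconate B raised the count to 30 (45.3% of all genes), with *Gstt2* and *Ugt2b34* among the calls lost, and leaving out lipid + itaconate D lowered it to 16 (39.4%).

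**Figure D3:**
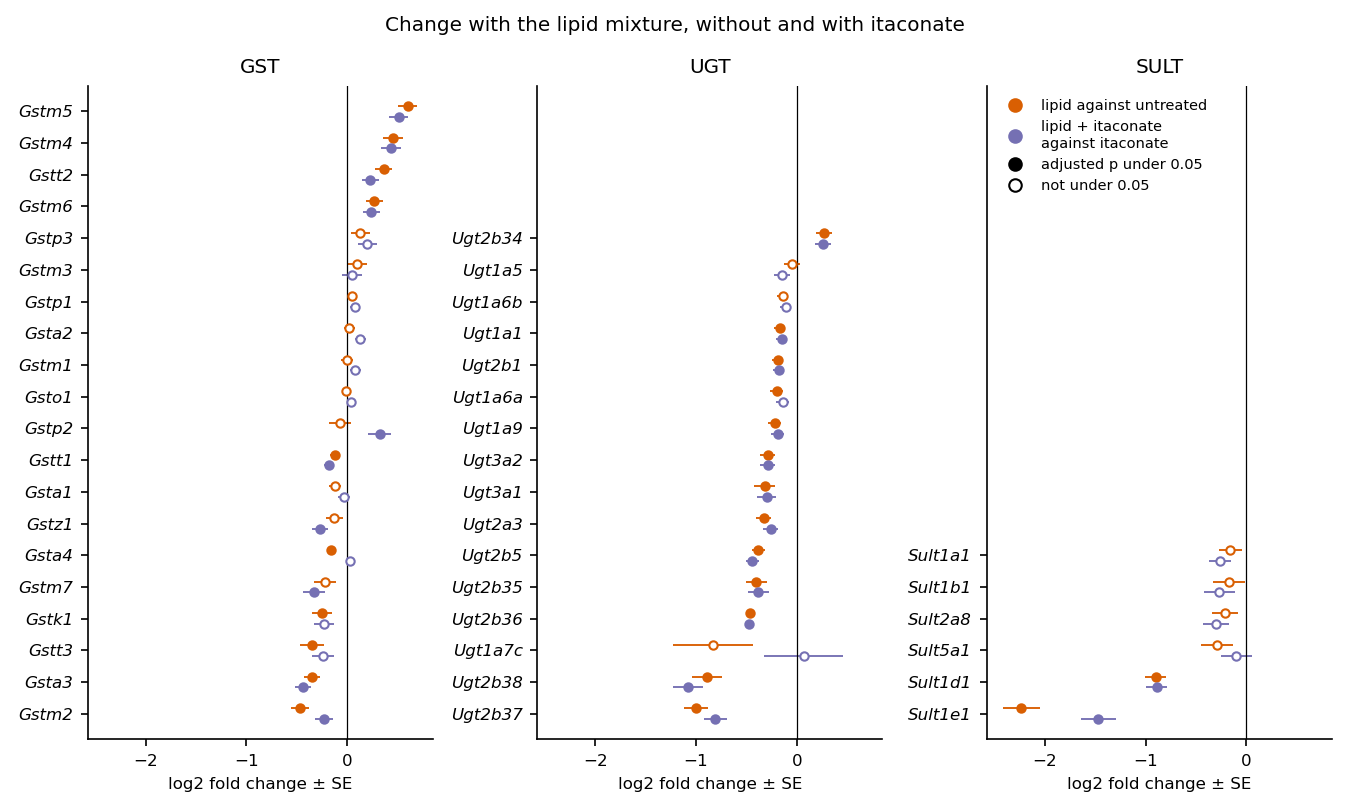
Log2 fold change with the lipid mixture (x axis, ± SE from edgeR) of the 42 tested genes, in orange for lipid against untreated and in purple for lipid + itaconate against itaconate, with filled points for an adjusted p under 0.05. Most UGT points lie left of 0 with *Ugt2b34* to the right, *Sult1e1* lies farthest left, and *Gstm5*, *Gstm4*, *Gstt2* and *Gstm6* lie right of 0 in both comparisons.

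In itaconate-treated libraries A to D *Sult1e1* was at 4.17, 4.92, 2.94 and 2.59 CPM and in lipid + itaconate-treated libraries at 1.34, 1.81, 1.46 and 0.674 CPM. The groups did not overlap, and the log2 fold change was -1.47 ± 0.174 (edgeR adjusted p = 8.61e-06). *Ugt2b38* had the second largest decrease, from 18, 20.2, 28.8 and 20.7 CPM to 11.3, 11.8, 9.72 and 7.98 CPM (log2 fold change -1.08 ± 0.147). *Sult1d1* (-0.89), *Ugt2b37* (-0.81), *Ugt2b36* (-0.47), *Ugt2b5* (-0.44) and *Gsta3* (-0.44) followed, all lower in each of the 4 letters and without overlap of the groups. Without lipid + itaconate B the log2 fold changes were -1.45 for *Sult1e1*, -1.18 for *Ugt2b38*, -0.99 for *Sult1d1*, -0.86 for *Ugt2b37*, -0.51 for *Ugt2b36*, -0.53 for *Ugt2b5* and -0.54 for *Gsta3*, all still called. *Gstm5* (0.51, and 0.56 without that library) and *Gstm4* (0.43 with and without it, but adjusted p = 0.141 by edgeR without the replicate letter) again rose, and *Gstm5* did so without overlap, from 8.45, 6.76, 5.69 and 6.92 CPM to 12.6, 9.01, 9.59 and 8.62 CPM. *Gstp2* was called higher (0.32 ± 0.11, edgeR adjusted p = 0.0261). This call was lost without the replicate letter (edgeR adjusted p = 0.398), by DESeq2 (adjusted p = 0.0575) and without itaconate B, lipid + itaconate A or lipid + itaconate C (edgeR adjusted p = 0.125, 0.0945 and 0.0635). Without lipid + itaconate B the change was 0.38 (edgeR adjusted p = 0.0126). The sum of *Gstp1* and its near copy *Gstp2* was 2220 ± 46.7 CPM with itaconate and 2370 ± 84.9 CPM with both agents.

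**Figure D4:**
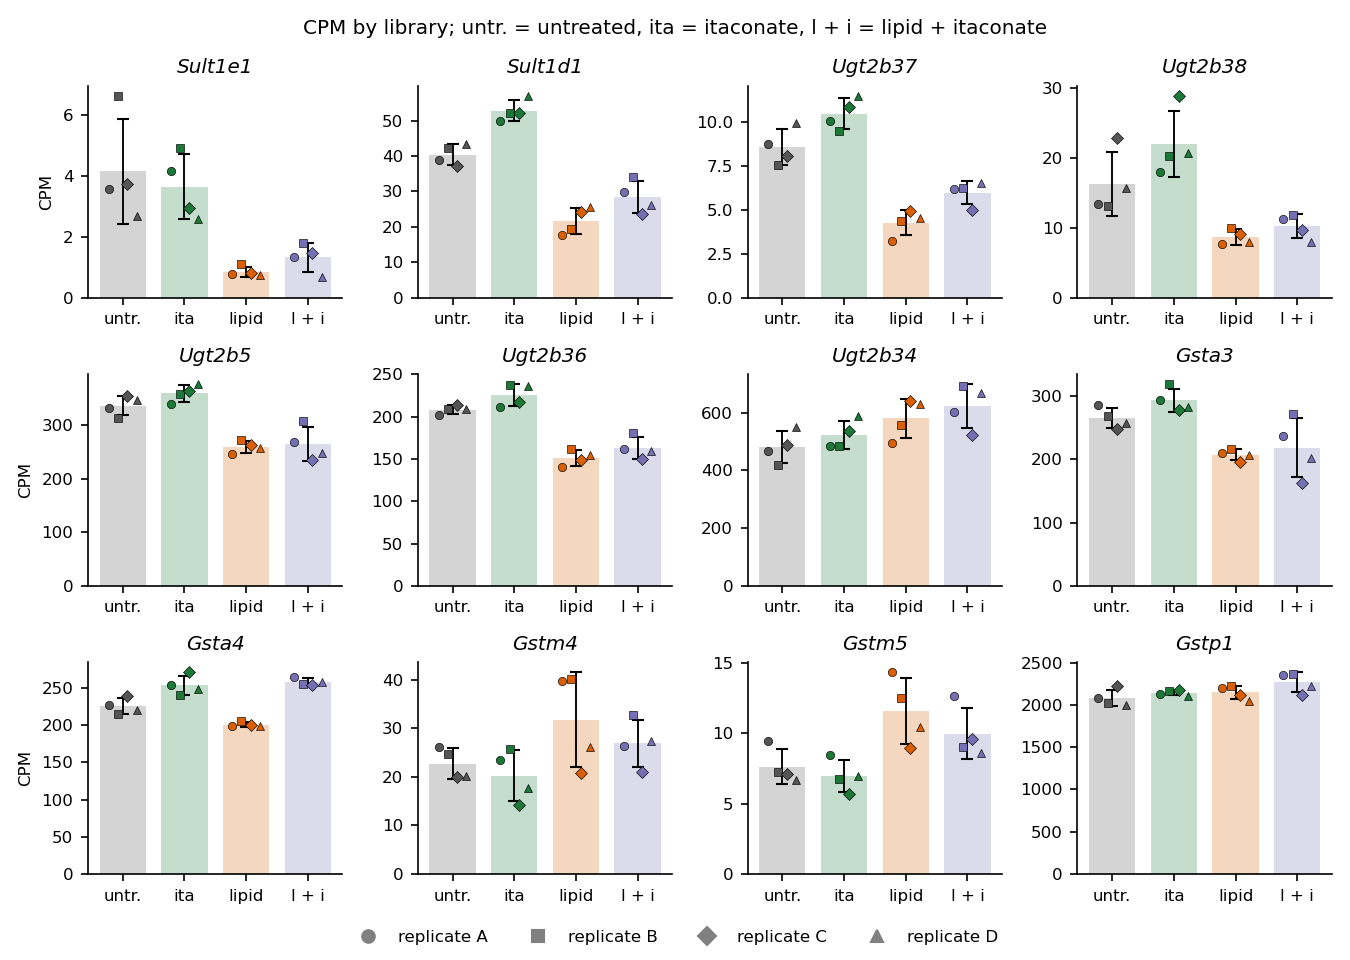
CPM (y axis, from 0) of 12 genes in each library, with bars for the mean of 4 libraries, error bars for the SD and 1 symbol per replicate letter. *Sult1e1*, *Sult1d1*, *Ugt2b37*, *Ugt2b38*, *Ugt2b5* and *Ugt2b36* are lower in both lipid groups than in both groups without lipid, *Gsta4* is higher in lipid + itaconate than in lipid, and the means of *Gstp1* lie between 2080 and 2270 CPM.

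Itaconate alone was called for 2 members, both of them higher, where 1.96% of all genes tested were higher and 2.95% lower. *Gsta4* (chr9:78182774-78209349) was at 227, 215, 240 and 221 CPM in untreated and 254, 241, 271 and 249 CPM in itaconate-treated libraries A to D. The lowest itaconate-treated library was 1 CPM above the highest untreated library, and all 4 letters rose, by 12.4% (log2 fold change 0.17 ± 0.0412, edgeR adjusted p = 0.0281). *Sult1d1* was at 49.9, 52.2, 52.1 and 56.9 CPM with itaconate, each above the untreated libraries given earlier (log2 fold change 0.39 ± 0.1, edgeR adjusted p = 0.0366). *Gsta4* and *Sult1d1* were the 2 members without overlap between these groups, where 7.53% of all genes had none. The calls were near the threshold. Without the replicate letter neither was called, and 0.197% of all genes were. Leaving out any 1 of the 8 untreated and itaconate-treated libraries left 0 or 1 call. The share of all genes called was then 1.276% to 3.375%, against 4.908% with all libraries. A model of those 8 libraries alone called 10 members and 15.9% of all genes. No called member changed by 1.5-fold, as 0.702% of all genes did.

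The median log2 fold change of the 42 members with itaconate was 0.01, and -0.00 for all genes. Point estimates of all 7 Ugt2b genes were above 0, from 0.01 for *Ugt2b35* to 0.44 for *Ugt2b38* (edgeR adjusted p = 0.0909), with 0.29 for *Ugt2b37* and 0.12 for *Ugt2b36* (edgeR adjusted p = 0.144 and 0.155), but none was called. The abundant genes were close to their untreated levels, with log2 fold changes of 0.04 ± 0.0487 for *Gstp1*, -0.04 ± 0.0571 for *Gstm1* and -0.01 ± 0.0578 for *Gsta1*. The SULT genes *Sult1e1* (-0.16), *Sult2a8* (0.15) and *Sult1a1* (0.12) were not called either.

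In lipid-treated hepatocytes, adding itaconate again gave 2 calls, both higher, beside 1.32% of all genes higher and 1.26% lower. *Gsta4* was at 199, 206, 200 and 199 CPM with lipid and 265, 256, 254 and 258 CPM with lipid + itaconate in libraries A to D. All 4 letters rose, the groups lay far apart relative to their spread, and the increase was 28.3% (log2 fold change 0.36 ± 0.0413, edgeR adjusted p = 0.000343). This call remained under the 23 other models and libraries left out, with adjusted p up to 0.0477, but the change was under 1.5-fold. *Ugt2b37* was at 6.21, 6.24, 5.01 and 6.52 CPM with both agents, each above its lipid-treated libraries, with a log2 fold change of 0.49 ± 0.124 (edgeR adjusted p = 0.0489). It lost its call under 17 of those 23 alternatives, and leaving out lipid + itaconate B left 1 call among the members, *Gsta4*. *Sult1d1* missed the threshold (log2 fold change 0.39 ± 0.107, edgeR adjusted p = 0.0644), with letter C not higher, and its change was 0.29 without lipid + itaconate B (edgeR adjusted p = 0.182). Of the 23 alternatives, 5 gave it a call, with adjusted p from 3.96e-06 (no filter), and 3 gave one to *Gstp2*. Also not called were *Gstp2* (0.42 ± 0.111, and 0.49 without that library, edgeR adjusted p = 0.0571 and 0.0548) and *Sult1e1* (0.60 ± 0.208 and 0.62, edgeR adjusted p = 0.142 and 0.216).

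**Figure D5:**
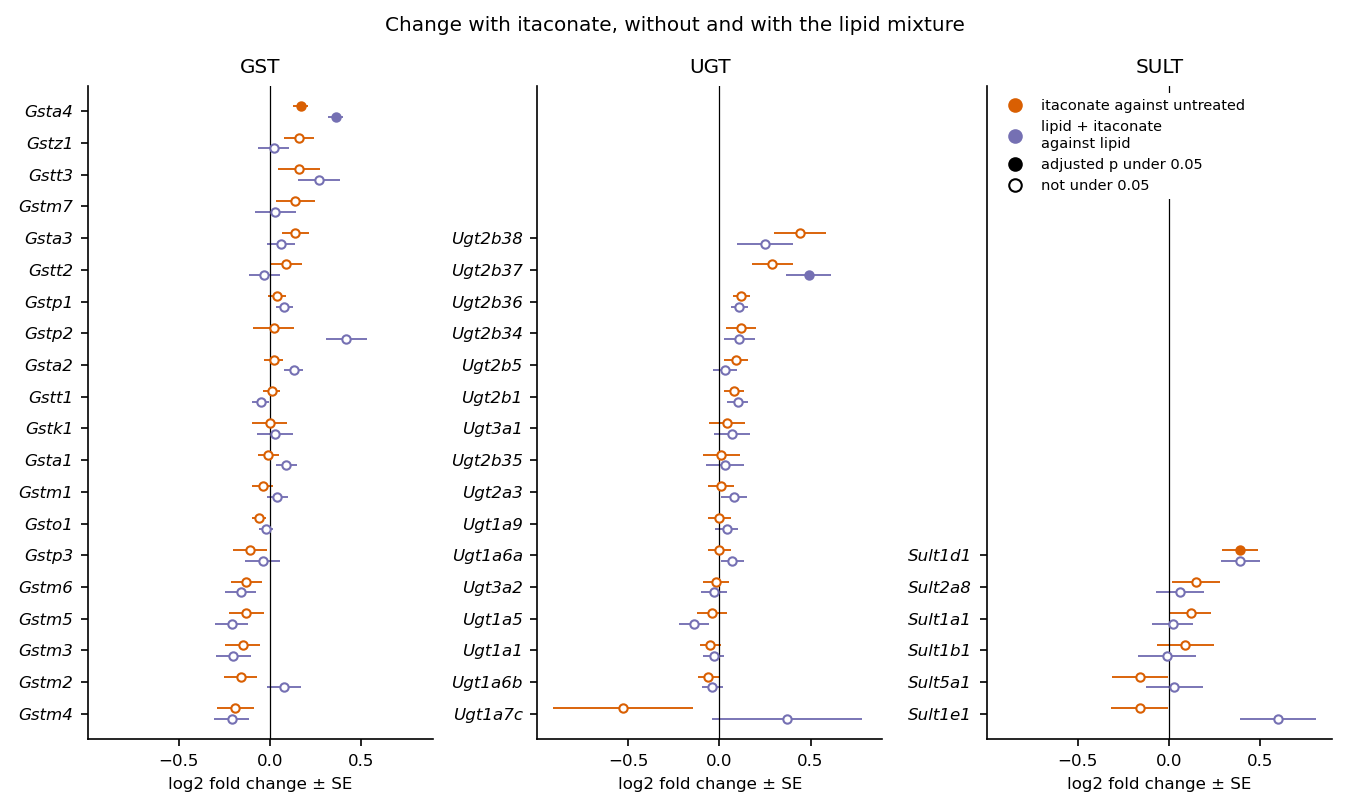
Log2 fold change with itaconate (x axis, ± SE from edgeR) of the 42 tested genes, in orange for itaconate against untreated and in purple for lipid + itaconate against lipid, with filled points for an adjusted p under 0.05. The filled points are *Gsta4* in both comparisons, *Sult1d1* without lipid and *Ugt2b37* with lipid, and most points lie within 0.2 of 0.

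No member was called for the interaction, the difference between the effect of itaconate with and without lipid (0.00857% of all genes, by edgeR), and DESeq2 and limma called none either. At an unadjusted p under 0.05 there were 3 members, beside 8.6% of all genes. These were *Gsta4* (interaction 0.19 ± 0.0583 on the log2 scale, adjusted p = 0.357 by edgeR), *Sult1e1* (0.76 ± 0.261, adjusted p = 0.424 by edgeR) and *Gstp2* (0.39 ± 0.156, adjusted p = 0.501 by edgeR). Without lipid + itaconate B these values were 0.18, 0.78 and 0.45, again not called. Lipid lowered *Gsta4* without itaconate (log2 fold change -0.16, edgeR adjusted p = 0.00406) but was not called with it (0.03, edgeR adjusted p = 0.633). With both agents *Gsta4* stood at 258 ± 5.04 CPM against 226 ± 10.7 CPM in untreated cells.

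Genes that supply, use or control the conjugation reactions were taken from 10 lists of 72 genes, of which 65 were tested. With lipid 16 of them rose and 20 fell, beside 23.8% and 23.7% of all genes. With lipid on top of itaconate 12 rose and 22 fell, beside 23.5% of all genes in each direction. Without lipid + itaconate B 12 rose and 24 fell, where 45.3% of all genes were called. Of the 5 glutathione supply genes, *Gclc*, the catalytic subunit of the rate-limiting enzyme of glutathione synthesis, fell by 0.67 on the log2 scale (edgeR adjusted p = 2.6e-05), 2 others fell and *Gss* rose by 0.14. Of the 4 genes for UDP-glucuronic acid, *Ugdh*, which makes the donor, was not called (-0.11, edgeR adjusted p = 0.219), and the transporters *Slc35d1* (-0.40) and *Slc35b1* (-0.22) fell. Among 6 genes for the sulfate donor, *Papss2*, the main PAPS synthase of liver, fell by 0.26, and *Bpnt1*, which clears the spent donor, and *Slc35b2* rose. *Mgst1*, a membrane-bound glutathione transferase outside the symbol rule, fell by 0.41 (edgeR adjusted p = 1.92e-05), and *Mgst3* was not called.

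The other conjugation reactions were divided. Of 9 tested genes for methyl, acetyl and amino acid conjugation, 2 rose, among them the thiopurine methyltransferase gene *Tpmt* (0.29), and 3 fell, namely *Nnmt* (-0.56, edgeR adjusted p = 5.24e-05), *Acsm1* (-0.33) and *Glyat* (-0.20). Of the 6 tested genes that process glutathione conjugates to mercapturates *Acy3* rose (0.61) and *Lap3* fell (-0.24). Of the 3 deconjugating enzymes *Gusb*, beta-glucuronidase, rose (0.20). Among the 4 exporters of conjugates *Abcc3*, at the blood side of the hepatocyte, rose by 0.40 (edgeR adjusted p = 8.59e-07), and *Abcc2* (-0.37) and *Abcg2* (-0.40) at the bile side and *Abcc4* (-0.36) fell.

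Of the 12 sensors and regulators 3 rose and 3 fell with lipid. *Ahr*, the aryl hydrocarbon receptor, fell by 0.73 on the log2 scale (edgeR adjusted p = 2.46e-07), *Nfe2l2*, which encodes Nrf2, by 0.25 and its inhibitor *Keap1* by 0.23, while *Nr1i2*, which encodes the pregnane X receptor, rose by 0.55. *Nr1i3*, the constitutive androstane receptor gene (-0.07, edgeR adjusted p = 0.744) and *Hnf4a* (0.11) were not called. Of the 14 tested target genes of these sensors 5 rose and 3 fell. *Cyp2b10* rose by 1.09 (edgeR adjusted p = 1.82e-07), the Nrf2 targets *Srxn1* (0.38) and *Nqo1* (0.34) rose while *Txnrd1* fell (-0.46), and *Cyp1a1*, an *Ahr* target near 1.03 CPM, rose by 0.79. *Pdk4*, a PPAR alpha target, fell by 1.34 (edgeR adjusted p = 1.58e-08), and *Cyp3a11* was not called (-0.14).

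With itaconate alone 2 of these 65 genes were called, both lower, beside 2.95% of all genes lower and 1.96% higher. They were the cystine transporter gene *Slc7a11* (-0.26, edgeR adjusted p = 0.0317) and *Gusb* (-0.21, edgeR adjusted p = 0.0223). In lipid-treated cells itaconate raised *Gclc* (0.41), *Gsr* (0.17), the aminopeptidase gene *Anpep* (0.19), *Ahr* (0.27) and *Pdk4* (0.47), and 1 further gene fell, beside 1.32% of all genes higher and 1.26% lower. Without lipid + itaconate B the changes of these 5 genes were 0.37, 0.15, 0.17, 0.28 and 0.39, and only *Pdk4* was still called higher (edgeR adjusted p = 0.0373). In lipid against untreated they had log2 fold changes of -0.67, -0.34, -0.07, -0.73 and -1.34, in the same order. Both comparisons contain the lipid-treated libraries.

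Short letter motifs were looked for on both strands in the 250 bases before the RefSeq start, which 56 members had (GRCm38.p6). A member was counted if any of its starts had a match, whereas the shares of all promoters are per start. The antioxidant response element TGACNNNGC, bound by Nrf2, was found for *Gsta3*, *Gstm5* and *Gstm7*, and in 10.16% of the 32851 promoters of the RefSeq table. The xenobiotic response element GCGTG, bound by the aryl hydrocarbon receptor, was found for 10 members and in 28.16% of promoters. *Gsta3* and *Gstm5* carry the first of these motifs and changed in opposite directions with lipid, so their promoter stretches of 80 bases are shown with the match in capitals, *Gsta3* at chr1:21240403-21240482 and *Gstm5* at chr3:107895751-107895830, both on the plus strand. In *Gstm5* the match overlaps a reverse GCGTG.
Gsta3: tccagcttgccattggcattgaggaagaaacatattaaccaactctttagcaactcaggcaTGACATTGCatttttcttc
Gstm5: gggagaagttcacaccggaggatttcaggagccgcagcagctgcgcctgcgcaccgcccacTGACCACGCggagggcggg
The matches are descriptions of the sequence, and binding was not measured.

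Marker genes of cells moved with the lipid mixture too. Of the 8 hepatocyte markers, 3 fell (*Alb* by 0.18, *Ttr* by 0.20 and *Cyp2f2* by 0.39 on the log2 scale) and *Asgr1* rose by 0.26. Their summed level was 51800, 39700, 37200 and 39200 CPM in untreated and 43900, 36100, 32700 and 34800 CPM in lipid-treated libraries A to D. Of the 6 macrophage markers tested, *Adgre1* (-0.82), *Marco* (-0.76) and *Cd5l* (-0.81) fell and *Cd68*, the most abundant, rose by 0.43. The summed level of the 8 listed was 176, 214, 282 and 244 CPM in untreated and 228, 277, 322 and 307 CPM in lipid-treated libraries A to D, and *Clec4f* was not called. Itaconate alone lowered *Cd68* by 0.24 (edgeR adjusted p = 0.0108), and no other marker of these lists was called with it. Of the cholangiocyte list *Spp1* fell by 0.97 and *Sox9* by 0.37, while *Krt19*, *Krt7* and *Epcam* had means over the 16 libraries of 0.225, 0.0046 and 0.298 CPM, and the summed level was 1170, 893, 727 and 600 CPM in untreated and 609, 523, 400 and 336 CPM in lipid-treated libraries. Of the 5 endothelial markers tested *Stab2* fell and *Lyve1* rose, at a summed level of 15.7 ± 4.31 and 17.6 ± 3.93 CPM, and of the stellate list only *Reln* passed the filter and was not called (-0.20). In lipid + itaconate against itaconate 4 of the 8 hepatocyte markers fell (*Alb* by 0.18, *Ttr* by 0.20, *Cps1* by 0.57 and *Cyp2f2* by 0.30). Their summed level was 52200, 42900, 37100 and 39200 CPM with itaconate and 48500, 41300, 28900 and 34100 CPM with both agents in libraries A to D. Of the 6 macrophage markers tested 5 fell, from *Clec4f* (-0.62) to *Adgre1* (-1.52), and *Cd68* rose by 0.58, with a summed level of 152, 202, 236 and 216 CPM and 211, 239, 302 and 315 CPM. *Spp1* (-0.68), *Sox9* (-0.37), *Stab2* (-0.50) and *Reln* (-0.23) also fell. All marker values with both agents include lipid + itaconate B. The part of these marker shifts in the changes of the conjugation genes was not tested.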

How the data were processed

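The authors trimmed reads with cutadapt 1.18, aligned them to mm10 with STAR 2.7.0f and quantified genes with RSEM 1.3.1 (versions from the submitters' processing notes). The deposited values are RSEM expected counts per gene for 16 libraries, without normalization. RSEM shares a read among the genes it fits, which bears on near-identical members. All 55450 gene identifiers were found in GENCODE M21 (GRCm38), from which positions and exon lengths were taken.

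Expected counts were rounded to whole numbers. A gene was tested if it averaged 1 CPM or more across the libraries (11675 genes), with edgeR 4.0.16 (R 4.3.3), TMM normalization and the quasi-likelihood F test, in 1 model with treatment and replicate letter. P-values were adjusted over all genes tested (Benjamini-Hochberg, threshold 0.05). Same-letter libraries deviated together (24 correlations of deviations from group means, 0.144 to 0.469, median 0.263), and other letters less so (72 correlations, -0.436 to 0.178, median -0.114), so the letter was kept as a block. Totals per library (22346049 to 35512004) limit precision for low genes.

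Members and lists were chosen with earlier results of these data known. Named genes are the 6 highest per kilobase in each family, up to 10 members called per direction in each comparison, their near copies, and up to 4 called genes per pathway list with its defining genes. *Ugt1a5* and *Sult1a1* are also named for their spread over letters, Sult2a genes for their counts of 0, and a few further called genes so that each count is accounted for, all chosen after their values were seen. Alternatives were no replicate letter, RLE, no filter, filterByExpr, only the libraries compared, DESeq2 1.42.0, limma 3.58.1 (trend), each library left out, and a minimum change of 1.5-fold. Sums over subfamilies and per-kilobase levels were not tested. Motifs were read from RefSeq promoters, and stretches of 50 bases and coding alignments (Biopython 1.88) from GENCODE M21 transcripts. Protein sequences were not used here, and a few genes, a motif and a shared sequence are not reported here.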

Additional observations from a re-analysis of the deposited data

Results flagged for a closer look

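In 4 of 168 groups of 4 libraries examined (named members and family or subfamily sums, in each treatment), 1 library lay apart from the other 3 by more than Dixon's critical value allows. Chance alone gives about 1 in 20 groups. *Gstm2* in untreated C was at 30.2 CPM, with the other untreated libraries between 34.5 and 35.4 CPM. *Sult1a1* in lipid-treated A was at 38.0 CPM, against 24.8 to 26.7 CPM in the others, and letter A was also the highest for this gene in the other 3 groups. *Ugt1a1* in untreated D was at 193 CPM, against 182 to 184 CPM. The summed level of the 7 Ugt2b genes in lipid-treated A was 1130 CPM, against 1270 to 1290 CPM.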

How the results depend on the processing

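For the 2 members called with itaconate alone, the count was 0 without the replicate block, 4 with no filter (4.34% of all genes), 10 in a model of only the libraries compared and 0 at a minimum of 1.5-fold, and 0 to 3 when 1 library was left out (1.28% to 9% of all genes). For the 2 members called in lipid + itaconate against lipid it was 1 without the replicate block (0.077% of all genes), 4 with no filter (2.88%), 1 with filterByExpr (1.77%), 1 with only the libraries compared (0.12%) and 0 at 1.5-fold, and 1 to 3 with 1 library left out (0.505% to 7.63%). The shares of 9% and 7.63% both came from leaving out lipid + itaconate C, the library with the highest share of mitochondrial counts. For the 25 members called with lipid it was 13 without the block and 5 at 1.5-fold, and 19 to 27 with 1 library left out (40.4% to 51.5% of all genes). For the 24 called in lipid + itaconate against itaconate it was 11 without the block and 4 at 1.5-fold, and 16 to 30 with 1 library left out (38.9% to 47.7%). For the interaction it was 1 with no filter (*Gstp2*, where 0.918% of all genes were called) and 0 in each model with 1 library left out (0 to 0.069% of all genes). Among the calls followed gene by gene, which are counted below, the pairing by letter changed no direction. RLE, DESeq2 and limma kept all 5 counts within 1.5 times. The 23 alternatives other than the minimum of 1.5-fold were followed gene by gene for part of the calls. With lipid these were 18 of 25 calls, and with lipid on top of itaconate 16 of 24. Of these, 11 and 10 held under all 23, as did 0 of 2 with itaconate alone and 1 of 2 in lipid-treated cells (*Gsta4*). None of these 38 changed sign. The 13 and 11 members called without the block include those 11 and 10, so most calls not followed gene by gene were lost there.

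Calls were gained by *Gsta1* (2 alternatives), *Sult2a8* (1, no filter) and *Sult5a1* (1, without lipid C) with lipid, by *Sult2a8*, *Ugt2b34*, *Ugt2b36* and *Ugt2b37* with itaconate (1 each, only the libraries compared), and by *Sult1d1* (5) and *Gstp2* (3) in lipid + itaconate against lipid. Values of uncalled genes that crossed 0 were *Gsta1* with itaconate (0.00 with no filter, -0.04 to 0.02 with 1 library left out) and *Gstm1* with lipid (-0.00 with RLE, -0.00 with DESeq2, -0.03 to 0.03 with 1 library left out). With 1 library left out, *Gsta2* ran from -0.01 to 0.06 with itaconate and -0.02 to 0.08 with lipid, *Gstp2* from -0.03 to 0.14 and -0.21 to 0.03, and *Sult1b1* from -0.05 to 0.19 and *Ugt2b35* from -0.08 to 0.10 with itaconate. The causes were not tested. Depth limits *Sult1e1* (18 to 189 counts per library) and *Ugt1a7c* (9 to 51), whose changes carry standard errors of 0.188 and 0.4 with lipid, against 0.0487 for *Gstp1*.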
